A study of Homo sapiens with 6 samples.

Results

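The open regions of chromosome 22 were taken as every accessibility peak listed on that chromosome in 6 ATAC-seq libraries (assay for transposase-accessible chromatin using sequencing), 37566 of 1044250 listed peaks. Members were chosen by chromosome name alone, but the chromosome itself was selected on its shift between resistant and naïve cells in these same libraries. Its differences between these cells are therefore given as a description, without a test, and 2 libraries against 2 could not reach an exact two-sided permutation p below 0.333 in any case.

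The cells came from SKNAS, a human neuroblastoma line grown as xenografts in mice that received vehicle or indisulam, a sulfonamide that directs the splicing factor RBM39 to degradation. Naïve cells were expanded from a vehicle-treated tumor, and R1 and R2 cells from indisulam-resistant tumors taken at the second relapse during the third treatment cycle. All 3 cultures were listed as untreated when harvested, 100000 cells went into each library, and each culture gave 2 libraries. Each group stands for 1 tumor-derived culture, and nothing states whether its libraries were separate cultures, so the spread between libraries may be technical.

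ATAC-seq cuts DNA with a transposase that reaches nucleosome-poor sites such as active promoters and enhancers, and the pileup of fragments at a site grows with accessibility and with the number of copies of that site. Chromosome 22 is a small acrocentric chromosome: its short arm is mostly repeats and ribosomal gene arrays, and its long arm is rich in genes. The long arm carries the tumor suppressors NF2, SMARCB1 and CHEK2, the interval lost in the 22q11.2 deletion syndrome, the APOBEC3 cluster of cytidine deaminases and genes for several splicing factors. In bulk libraries the share of cells with an open site, the copies per cell and the openness of each copy cannot be told apart.

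Sequences of regions on which the results below turn are shown, read from hg38, the build the coordinates fit, from 5′ to 3′ on the stated strand. TANGO2 and CASTOR1 held the promoters with the highest mean rank on the chromosome, NF2, MYH9 and RBX1 are promoters whose resistant libraries all stood above the naïve ones, TEF held the largest difference in R2, and the last entries were the highest-ranking regions away from promoters. Capitals mark matches on either strand to the motifs searched, which were GGGCGG for the SP/KLF family, CCAATNNG for the factor NFY, CACGTG for the E-box family, AGGTGGCAG and likewise AGGGGGCGC for forms of the CTCF core, CCGGAAG for the ETS family, TGANTCA for the factor AP-1, TGACGTCA for the CRE element, GCGCATGCG for the factor NRF1, AAGATGGC for the factor YY1, GGAATGT for the TEAD family and AGATAAG for the GATA family. Overlapping matches run together.
TANGO2, chr22:20020869-20021068, plus strand: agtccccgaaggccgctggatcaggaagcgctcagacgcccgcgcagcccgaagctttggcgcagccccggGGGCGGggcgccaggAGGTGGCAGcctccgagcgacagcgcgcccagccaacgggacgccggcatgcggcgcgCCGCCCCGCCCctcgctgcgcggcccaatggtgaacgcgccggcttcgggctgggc
CASTOR1, chr22:30289623-30289822, minus strand: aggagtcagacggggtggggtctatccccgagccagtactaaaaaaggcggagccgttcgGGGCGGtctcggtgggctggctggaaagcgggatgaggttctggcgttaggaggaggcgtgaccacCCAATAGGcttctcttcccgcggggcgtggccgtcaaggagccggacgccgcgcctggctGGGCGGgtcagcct
NF2, chr22:29603356-29603555, plus strand: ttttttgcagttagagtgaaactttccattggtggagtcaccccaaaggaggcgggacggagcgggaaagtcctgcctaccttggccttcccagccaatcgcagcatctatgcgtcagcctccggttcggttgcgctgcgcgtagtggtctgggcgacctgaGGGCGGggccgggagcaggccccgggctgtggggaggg
MYH9, chr22:36388012-36388211, minus strand: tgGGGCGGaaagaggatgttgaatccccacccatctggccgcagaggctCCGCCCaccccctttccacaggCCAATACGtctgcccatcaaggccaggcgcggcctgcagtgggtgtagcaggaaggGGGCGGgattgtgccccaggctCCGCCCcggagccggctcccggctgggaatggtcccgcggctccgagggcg
RBX1, chr22:40950912-40951111, plus strand: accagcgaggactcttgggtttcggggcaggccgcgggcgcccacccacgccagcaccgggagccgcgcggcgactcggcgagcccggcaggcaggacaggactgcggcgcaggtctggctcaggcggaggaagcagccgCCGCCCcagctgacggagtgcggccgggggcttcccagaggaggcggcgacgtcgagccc
TEF, chr22:41367173-41367332, plus strand: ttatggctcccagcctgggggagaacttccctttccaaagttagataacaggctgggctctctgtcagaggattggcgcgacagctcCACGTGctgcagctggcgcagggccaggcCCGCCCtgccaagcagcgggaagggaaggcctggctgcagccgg
Intergenic repeat, chr22:16354598-16354797, plus strand: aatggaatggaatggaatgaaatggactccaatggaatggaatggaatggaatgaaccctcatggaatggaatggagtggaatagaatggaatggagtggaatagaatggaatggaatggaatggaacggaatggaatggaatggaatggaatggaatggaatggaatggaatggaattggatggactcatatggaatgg
Intergenic region of the short arm, chr22:12693644-12693843, plus strand: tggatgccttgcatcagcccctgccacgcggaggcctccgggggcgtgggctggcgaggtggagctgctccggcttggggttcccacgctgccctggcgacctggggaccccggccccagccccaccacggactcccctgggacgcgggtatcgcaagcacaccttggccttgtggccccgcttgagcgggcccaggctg

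These windows differ in base composition. The RBX1 and TANGO2 windows have a GC content of 76.5% and 77.5%, and hold 26 and 30 CG steps in 200 bases. The intergenic repeat is a run of GGAAT units with a GC content of 41.0% and 1 CG step, and it held none of the motifs searched. Each region shared by all libraries was read around its summit in the first R2 list. CG steps and motifs were taken over 300 bases there, and GC content over a wider window. In the 1024 shared regions of chromosome 22 the median GC content was 62.7%, against 62.9% over all 36449 shared regions. The median ratio of observed to expected CG steps was 0.332 against 0.433. The SP/KLF motif was found in 41.4% of chromosome 22 regions and in 45.4% of all regions, the AP-1 motif in 8.30% and 9.48%, the E-box in 8.11% and 8.15%, and the second CTCF form, AGGTGGCAG, in 2.34% and 1.59%. In promoter regions alone the SP/KLF share was 59.1% on chromosome 22 and 62.3% in all. A match is a string of letters in a window, not evidence of binding.

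Depth differed strongly between libraries. The naïve lists held 3783 and 2963 chromosome 22 peaks, the R1 lists 13703 and 12553, and the R2 lists 2200 and 2364. The background pileup rate recovered from the peak values was 2.29 and 1.35 in naïve, 7.94 and 5.43 in R1, and 0.850 and 0.899 in R2, so R1 was the deepest and R2 the shallowest, and the numbers of peaks had the same order. Median peak width on the chromosome was 324 and 311 bp in naïve, 451 and 431 bp in R1 and 291 and 288.5 bp in R2. The promoters of GATA3, HAND2, ISL1, TH and DBH, genes of adrenergic neuroblastoma cells, and of VIM, FN1, TWIST1, PRRX1 and FOSL2, genes of mesenchymal ones, had a peak in all 6 libraries, and YAP1 in 4. Of markers of other cell types, PTPRC and ALB had a peak in 0 libraries, HBB in 2, EPCAM in 3 and CDH5 in 4.

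Chromosome 22 held a larger share of the strongest peaks in both resistant cultures. Among the 20000 peaks with the highest −log10 p in each library, 310 and 356 lay on chromosome 22 in naïve, which is 1.55% (95% Wilson interval 1.39 to 1.73) and 1.78% (1.61 to 1.97). In R1 the counts were 613 and 675, or 3.07% (2.83 to 3.31) and 3.38% (3.13 to 3.63). In R2 they were 439 and 469, or 2.20% (2.00 to 2.41) and 2.35% (2.14 to 2.56). Group means were 1.67% ± 0.163, 3.22% ± 0.219 and 2.27% ± 0.106 (SD, n = 2 each), with no overlap between groups, and the intervals cover counting error only. These shares belong to the contrast on which the chromosome was selected, so nothing further is read from them.

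To compare the same places across libraries, peaks of the first R2 list that overlapped a peak in all 6 lists were kept, 36449 in all and 1024 on chromosome 22, and each was ranked by −log10 p within its library from 0 (lowest) to 100 (highest). The 1024 are 46.5% of the 2200 chromosome 22 peaks of the first R2 list, beside 36449 of its 67558 peaks over all chromosomes. Of these 2200, 358 overlapped no naïve peak, and 52 of the 358 had peaks in all 4 resistant libraries. These last counts have no value over all chromosomes beside them, so they are not read as a trait of chromosome 22. The shared regions thus hold the places open in every library and leave out those open only in some.

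The 1024 regions had a median rank of 26.8 and 29.2 in naïve, 63.7 and 62.7 in R1 and 41.5 and 43.2 in R2. In naïve cells the chromosome therefore lay in the lower part of the ranking, in R1 above its middle and in R2 between the naïve value and the middle. Regions with equal −log10 p share a tied rank, and the shallow libraries have few distinct values. The 1024 regions took 41 and 42 distinct values in R2, similarly few in naïve, and 210 and 168 in R1. In the second R2 library summit pileups of 10 and 11 fragments ranked at 24.01 and 33.96. Single R2 ranks and their medians therefore move in coarse steps. The shift, which is the resistant mean rank minus the naïve mean rank of each region, had a median of 24.3 percentile points in R1, with quartiles of 11.4 and 41.4, and of 11.1 in R2, with quartiles of −0.0691 and 22.8. Over all regions the median shift was −1.29 in R1 and 0.792 in R2. Single shifts on the chromosome ran from −71.9 to 96.2 in R1 and from −68.9 to 79.7 in R2.

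Both R1 ranks lay above both naïve ranks in 788 of the 1024 regions (77.0%), against a background of 27.4% of all regions. In R2 this held for 405 (39.6%), against 26.4%. Both ranks lay below both naïve ranks in 45 regions (4.39%) in R1 and 72 (7.03%) in R2, against 34.5% and 22.3% of all regions. Among 23 chromosomes (1 to 22 and X) the highest R1 median shifts were those of chromosomes 22 (24.3), 13 (23.9) and 20 (17.9). In the R1 libraries taken singly chromosome 13 stood at 24.0 and 25.1, above chromosome 22 at 23.5 and 24.4. In R2 chromosome 22 came in place 5, and chromosomes 13 (30.3), X (16.9) and 20 (15.2) led. Both comparisons use the same naïve libraries. When ranks were taken among all peaks of a library instead of among shared regions, the R2 shift turned to −9.63, beside −12.9 for all chromosomes, and the R1 shift was 16.7, beside 6.38.

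**Figure D1:**
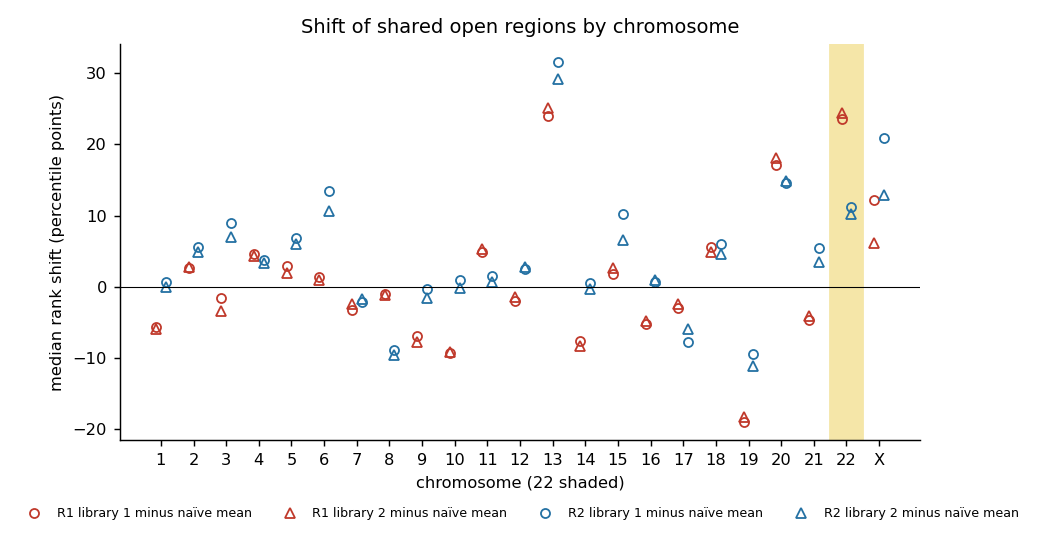
Median rank shift of shared open regions by chromosome, in percentile points, each library of R1 (red) and R2 (blue) minus the mean of the naïve libraries (circle, library 1; triangle, library 2), with chromosome 22 shaded. The chromosome 22 points lie at 23.5 and 24.4 in R1 and at 11.2 and 10.2 in R2.

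A wide peak in a deep library can cover several regions of a shallow list, and R1 peaks did so on this chromosome. The 1024 regions fell in 499 and 519 different R1 peaks, or 2.05 and 1.97 regions per peak, against 1.67 and 1.62 over the genome, and in 783 and 865 naïve peaks. Such regions borrow the summit of the wide peak, so the comparison was repeated with overlapping peaks of all 6 lists joined into single regions and each joined region counted once, a choice made after these values were seen. That left 593 regions on chromosome 22 of 24147, with a median width of 2992 bp, beside 1979 bp over all joined regions. Each library was represented by its best peak in the joined region, so summits can still lie at different places within it. Their median ranks were 29.3 and 32.7 in naïve, 54.3 and 57.2 in R1, and 40.2 and 45.3 in R2. Median shifts were 19.0 in R1 and 7.09 in R2, smaller than with the regions above. Chromosome 13 had joined shifts of 24.2 in R1 and 26.0 in R2, both above those of chromosome 22. In R1 454 joined regions of chromosome 22 (76.6%) stood above naïve, against a background of 31.1%, and in R2 213 (35.9%), against 21.1%.

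Pileups show the same difference as a fold. Each summit pileup of a joined region was divided by the library's median over the joined regions, so that 1 stands for the middle region of that library. Later ratios of single shared regions use the library's median over shared regions instead. Those of promoters use the median over promoters with a peak in all 6 libraries. Ratios from these different scalings are not directly comparable. In joined regions of chromosome 22 the R1 to naïve ratio of scaled pileups had a median of 1.34, with quartiles of 1.12 and 1.61. The R2 to naïve ratio had a median of 1.16, with quartiles of 1.02 and 1.34. By library the ratios were 1.32 and 1.36 in R1 and 1.17 and 1.11 in R2. Over all chromosomes the medians were 0.978 and 1.02. The difference was therefore moderate in size and spread over most of the chromosome: 533 of 593 joined regions (89.9%) had a positive shift in R1 and 436 (73.5%) in R2, against 50.04% and 48.1% of all joined regions.

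**Figure D2:**
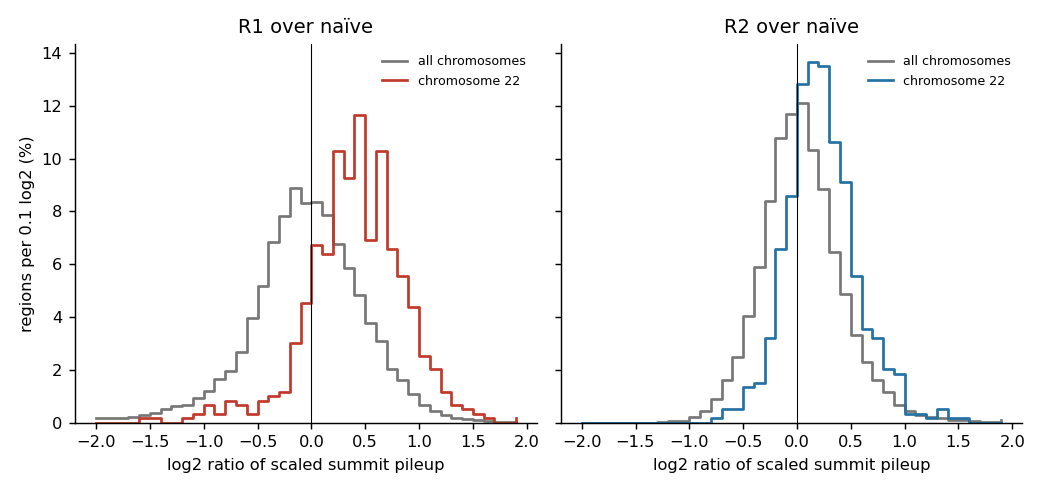
Distribution of the log2 ratio of scaled summit pileups, R1 over naïve (left) and R2 over naïve (right), in steps of 0.1 as a percentage of the joined regions of chromosome 22 (coloured) and of all chromosomes (grey), with values beyond the axis placed in the outermost steps. The chromosome 22 curve as a whole sits to the right of the grey curve, with medians of 0.42 in R1 and 0.21 in R2.

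The shift was positive at every level of naïve rank. Of the 1024 regions, 42.8% had a naïve mean rank of at most 25, against 22.6% of all regions, and regions of low rank have more room above them. In that lowest band the median shift was 29.8 in R1 and 15.4 in R2, beside 8.74 and 14.3 for all regions of the band. From 25 to 50 the R1 shift was 29.0 beside 0.245, and from 50 to 75 it was 18.8 beside −6.18. Above 75, where 68 chromosome 22 regions lay, it was 8.86 beside −4.84. In R2 the corresponding values were 7.46 beside 1.88, 7.58 beside −7.29 and 5.91 beside −2.73. In R1 chromosome 22 thus stood above the genome in all 4 bands, whereas in R2 the values were close in the lowest band, which held the most chromosome 22 regions, and farther apart in the others.

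Shifts were positive in every class of location. Promoter regions, those within 1000 bp of a start site, numbered 504 (49.2%, against 52.9% of all regions), and their median shift was 26.1 in R1 and 12.4 in R2. The 250 regions in introns shifted by 21.6 and 11.1, the 205 between genes by 23.9 and 8.18, and the 65 in exons by 24.3 and 9.48. All 4 classes lay above the median of all regions in both cultures.

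Along the long arm the difference ran from end to end. The arm was divided into 18 bins of 2 Mb, each with at least 5 shared regions. The median shift was above 0 in 18 of 18 bins in R1, from 8.41 to 54.4, and in 18 of 18 in R2, from 1.57 to 32.2, and R1 exceeded R2 in 15. Both libraries of R1 lay above the naïve mean in all 18 bins, and both libraries of R2 in 17. The exception was bin 15, from 44 to 46 Mb, where the 8 regions shifted by 5.19 and −6.36 in the R2 libraries.

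Joined regions gave the same picture in R1 and a lower one in R2. All 18 bins were above 0 in R1, from 12.7 to 37.0, and 17 of 18 in R2, where bin 15 stood at −4.03 and the highest bin at 20.8. R1 exceeded R2 in 18 of 18 bins. The R1 value of 54.4 in bin 9, from 32 to 34 Mb, which rested on 13 regions, was 21.5 over its 11 joined regions. The highest joined values in R1 were in bins 13 and 14, from 40 to 44 Mb, the interval of EP300, RBX1, RANGAP1, XRCC6 and PHF5A: 32.6 and 37.0. In R2 these bins stood at 20.8 and 14.1, and bin 11, from 36 to 38 Mb, at 15.9. All 26 joined regions of bin 13 stood above naïve in R1 and 14 of them in R2. The shares were 76.6% and 35.9% of the joined regions of chromosome 22, and 31.1% and 21.1% of all joined regions. Bin 13 was picked for its high shift, so nothing further is read from its counts.

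**Figure D3:**
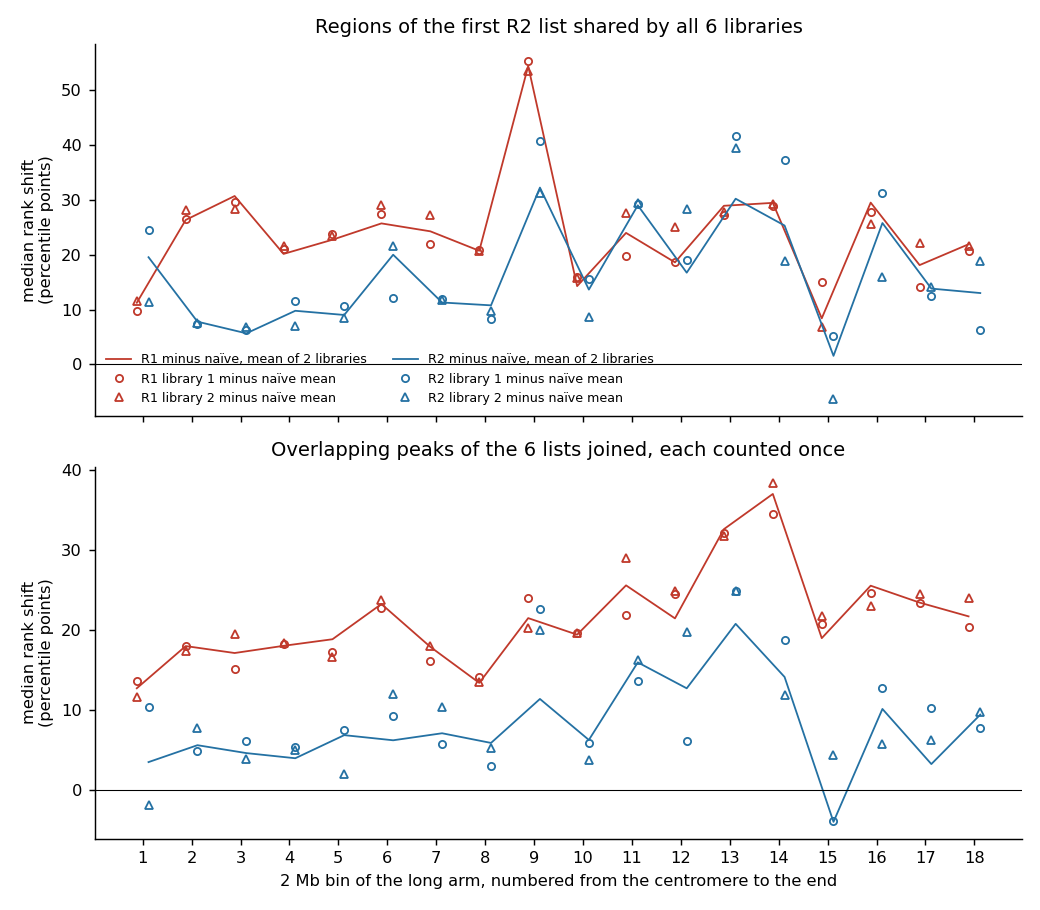
Median rank shift, in percentile points, in 2 Mb bins of the long arm numbered from the centromere, for R1 (red) and R2 (blue) minus the naïve mean, with lines for the group and symbols for each library. The upper panel uses the regions of the first R2 list and the lower panel the joined regions, in which bin 15 of R2 (−4.03) is the lowest point of the group lines and bin 14 of R1 (37.0) the highest.

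The level of accessibility differed along the arm in all 6 libraries. From 18 to 32 Mb there were 787 shared regions and 194 protein-coding genes, and from 32 to 46 Mb 132 shared regions and 191 genes, so gene density was nearly equal at 13.9 and 13.6 genes per Mb. The boundary was placed after the values were seen. Peaks per Mb numbered 176 and 142 before 32 Mb and 51.3 and 38.2 beyond it in naïve, 443 and 412 against 355 and 324 in R1, and 109 and 117 against 25.9 and 27.7 in R2. The later interval was the sparser in every library.

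The promoters show that step too. Before 32 Mb 85.1% and 79.4% of promoters had a peak in naïve, beside 61.3% and 61.3% beyond it, and in R2 78.4% and 78.4% against 51.3% and 49.7%. In R1, the deepest libraries, the shares were 94.8% and 93.8% against 96.3% and 96.3%, so nearly every promoter was called on either side. The median promoter rank was nevertheless lower beyond 32 Mb in R1 as well, 44.7 and 44.3 against 81.2 and 80.6. It was 31.9 and 35.6 against 58.8 and 62.4 in naïve and 40.7 and 18.8 against 62.4 and 64.4 in R2, where 18.8 is the rank of a promoter with no peak. The scaled pileup of joined regions relative to naïve was 1.31 before the boundary and 1.43 beyond it in R1, and 1.12 and 1.23 in R2. The step in promoter rank was thus present in every library. Beyond it the median promoter rank of R1 lay above both naïve values, whereas that of the second R2 library lay below them.

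**Figure D4:**
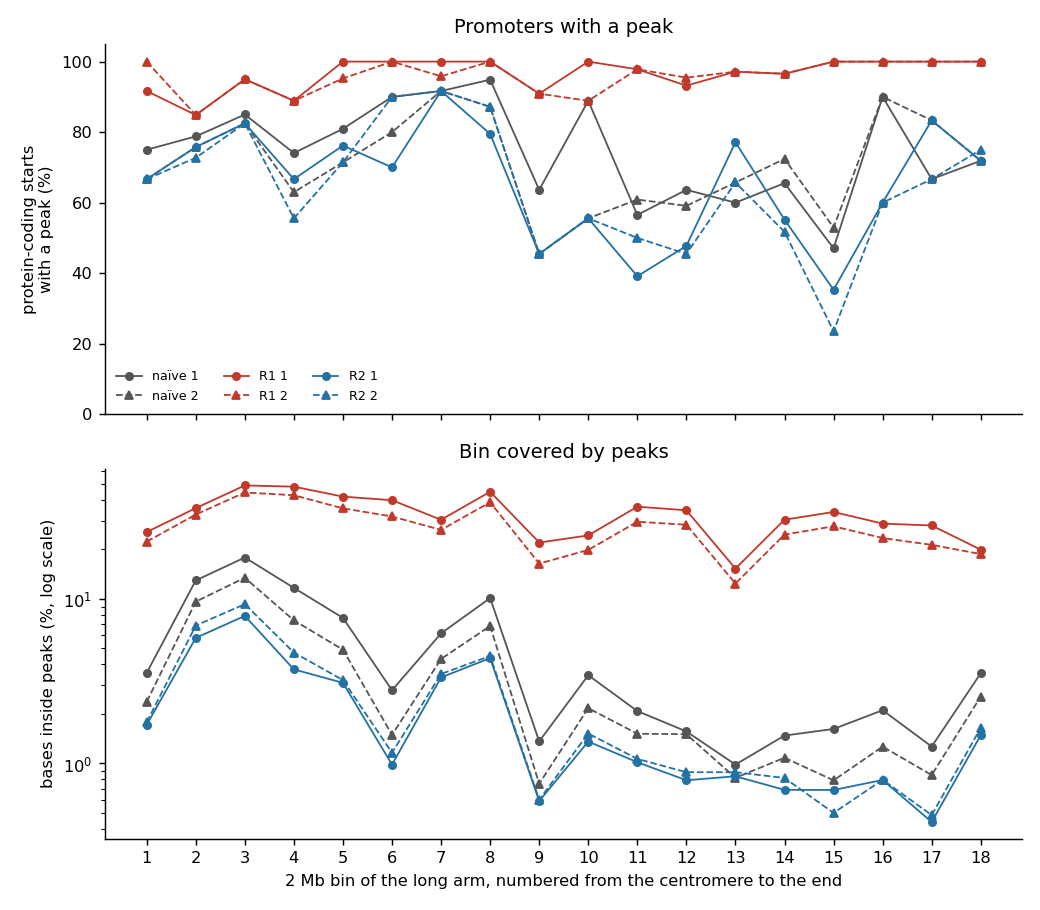
Share of protein-coding start sites with a peak (upper, %) and share of bases inside peaks (lower, %, log scale) in 2 Mb bins of the long arm numbered from the centromere, for each of the 6 libraries (grey naïve, red R1, blue R2). Between bins 8 and 9 the covered share was 10.1% and then 1.36% in the first naïve library, 44.9% and 22.04% in the first R1 library and 4.37% and 0.591% in the first R2 library.

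On the short arm R1 did not stand above naïve. This arm held 67 and 44 peaks in naïve, 147 and 143 in R1 and 49 and 52 in R2, with 23 shared regions and no protein-coding start. Their median rank was 42.1 and 56.4 in naïve, 43.5 and 39.1 in R1 and 69.3 and 63.6 in R2. Taken singly, the R1 libraries shifted by −1.67 and −4.13 and the R2 libraries by 7.13 and 13.6. Over the 17 joined regions of the arm the shift was −0.347 in R1, and 0.149 and 0.145 for its libraries taken singly, and 6.62 in R2. The difference between R1 and R2 there was not tested, and reads from repeats can be placed at more than 1 site.

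The highest-ranking regions away from promoters were in such sequence. The region at chr22:12693220-12694089, intergenic and on the short arm, ranked at 99.8 and 99.8 in naïve, 99.9 and 99.9 in R1 and 99.3 and 99.5 in R2. Its neighbour at chr22:12691668-12693085 shared its peak in the R1 libraries and in the second naïve library. The GGAAT repeat at chr22:16354588-16354806, at the start of the long arm, ranked at 99.9 and 99.9 in naïve, 96.7 and 98.5 in R1, and 99.9 and 99.8 in R2. Its summit pileup was 241 and 192 fragments in naïve, 333 and 271 in R1 and 195 and 197 in R2, which after scaling is 0.313 times the naïve level in R1 and 1.68 times in R2. The region with the lowest R1 shift, chr22:10718050-10718313, was also intergenic on the short arm. It ranked at 79.5 and 93.2 in naïve, 10.9 and 17.97 in R1, and 98.8 and 97.6 in R2.

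At gene promoters a peak was required within 1000 bp of the annotated start, and the promoters of all 19970 protein-coding genes were ranked in each library, with promoters lacking a peak tied at the bottom. Of 447 chromosome 22 genes, 73.2% and 70.7% had a promoter peak in naïve, 95.7% and 95.5% in R1 and 65.3% and 64.7% in R2. Over all genes the shares were 71.7% and 68.0% in naïve, 85.0% and 83.3% in R1 and 61.3% and 62.4% in R2. Promoters without a peak had a tied rank that lay between 7.50 and 19.3, depending on the library. A peak in all 6 libraries was found for 242 chromosome 22 genes (54.1%), beside 10950 of all 19970 genes. On the chromosome 16 genes had a peak in 0 libraries. Promoters with a peak in both R1 libraries and in no other numbered 59 (13.2%, against 7.35% of all genes), and R1 is the deepest group. No promoter on the chromosome had peaks in all 4 resistant libraries and in neither naïve library, nor in both naïve libraries and neither R1 library, patterns found at 0.411% and 0.0351% of all promoters, so counts of 0 are near the background.

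Both R1 ranks stood above both naïve ranks, with a peak in both R1 libraries, at 324 of the 447 promoters (72.5%), against a background of 28.1%. In R2 this was so at 116 (26.0%), against 13.9%. Among the 242 promoters with a peak everywhere the median scaled pileup was 1.35 times naïve in R1 and 1.17 times in R2, above 1 at 94.6% and 78.9% of them, beside 0.947 and 1.00 over all 10950 such promoters. Counting only peaks whose own summit lay within 1000 bp of the start, another choice made after the values were seen, left 304 promoters above naïve in R1 (68.0%, background 28.5%) and 106 in R2 (23.7%, background 13%), with median ratios of 1.37 and 1.19. The median ratios over all promoters were 0.976 and 1.02 when counted this way.

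TANGO2, CASTOR1 and CRKL had the highest-ranking promoter regions. CASTOR1 encodes an arginine sensor of the mTORC1 pathway, CRKL a signalling adaptor, and TANGO2 lies in the 22q11.2 deletion interval. Among shared regions that of TANGO2 at chr22:20020634-20021198 ranked at 91.2 and 95.5 in naïve, 98.2 and 98.2 in R1 and 97.5 and 96.8 in R2. In CASTOR1 the region at chr22:30289017-30289920 ranked at 91.6 and 94.7, 97.4 and 98.5, and 96.4 and 97.7 in the same order. Near the top of the scale a rank can hardly differ, but their scaled pileups were 1.40 and 1.38 times naïve in R1 and 1.37 and 1.38 times in R2. These ratios were scaled over shared regions. Scaled over promoters, the TANGO2 ratios were 1.30 in R1 and 1.18 in R2.

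Genes of cancer were next examined at their promoters, in ranks among all protein-coding promoters. NF2, a tumor suppressor of the Hippo pathway, ranked at 85.5 and 89.6 in naïve, 98.6 and 99.3 in R1 and 97.0 and 99.0 in R2, with scaled pileups 1.59 and 1.61 times naïve. MYH9, a nonmuscle myosin heavy chain, stood at 62.3 and 62.4 in naïve, 89.3 and 90.0 in R1 and 89.3 and 83.7 in R2, ratios of 1.73 and 1.70. In both genes the 4 resistant values lay above the naïve values with a gap wider than the spread within any group. CHEK2, a DNA damage checkpoint kinase, showed 87.9 and 77.5, 88.5 and 92.6, and 96.1 and 95.7, and was thus also above naïve in both cultures, though the lower R1 value lay close to the higher naïve one. EP300, a histone acetyltransferase, was scattered in naïve (36.3 and 64.7) and stood at 66.0 and 61.6 in R1 and 79.1 and 78.0 in R2, so that only R2 lay clear of naïve.

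SMARCB1 and EWSR1 parted the cultures. SMARCB1, a core subunit of the SWI/SNF remodelling complex, ranked at 62.3 and 62.4 in naïve, 73.5 and 71.0 in R1 and 55.3 and 42.6 in R2, with ratios of 1.21 and 0.731. EWSR1, an RNA-binding protein known from Ewing sarcoma fusions, ranked at 71.9 and 77.5, 87.1 and 82.8, and 79.1 and 57.6. R1 was above naïve in both genes. R2 was below naïve at SMARCB1 and on both sides of it at EWSR1. Of the 13 cancer genes listed, 11 stood above naïve in R1 and 6 in R2. Beside these counts stand 72.5% and 26.0% of chromosome 22 promoters, and 28.1% and 13.9% of all promoters, as for the lists that follow. All these lists lie on chromosome 22, so their counts are not read as traits of the genes listed.

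Splicing and RNA processing genes were mostly higher in R1. SF3A1, a subunit of the U2 small nuclear ribonucleoprotein, ranked at 65.6 and 71.5 in naïve, 87.9 and 91.4 in R1 and 76.7 and 85.5 in R2, ratios of 1.52 and 1.30. RANGAP1, the GTPase activator of Ran in nuclear transport, ranked at 45.3 and 54.5, 78.3 and 81.3, and 68.8 and 78.0, ratios of 1.84 and 1.64. In both genes the groups did not overlap with naïve. PHF5A, a subunit of the same ribonucleoprotein's SF3B complex, had a peak in 1 naïve library (rank 31.9) and in all resistant ones, at 47.9 and 48.2 in R1 and 47.4 and 57.6 in R2. SNRPD3, an Sm core protein, was already high (79.7 and 90.5 in naïve, 94.8 and 91.6 in R1, 91.5 and 87.1 in R2). SNU13, a protein of the U4/U6.U5 complex, and DDX17, an RNA helicase, had a peak in 4 and 5 libraries and ranked no higher than 50.04. Of 15 genes in this list, 13 stood above naïve in R1 and 6 in R2. Only 9 of the 15 had a peak in all 6 libraries, and each naïve library had a peak at 12 of them and each R1 library at 15. Where a naïve peak is missing, a higher R1 rank cannot be told apart from depth.

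The ubiquitin ligase genes include RBX1, the RING subunit of cullin-RING ligases, the class of enzyme that indisulam redirects. The RBX1 promoter ranked at 53.2 and 35.6 in naïve, 59.5 and 59.5 in R1 and 74.1 and 73.1 in R2, with ratios of 1.40 and 1.85, and it was among the genes whose R2 values exceeded R1. UFD1, a cofactor of the p97 segregase, and CDC45, a helicase factor of DNA replication, start close together in opposite directions and shared their peak in every library, which ranked at 77.4 and 69.4 in naïve, 87.3 and 87.0 in R1 and 79.1 and 70.4 in R2. R2 overlapped naïve there. Of 9 ubiquitin and protein turnover genes 6 stood above naïve in R1 and 4 in R2.

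Replication and repair genes gave 8 of 9 above naïve in R1 and 4 of 9 in R2. XRCC6, the Ku70 subunit of DNA end joining, had the largest R1 ratio of the genes named by rule, 2.17, with ranks of 29.1 and 45.1 in naïve and 67.8 and 72.9 in R1. Its R2 ranks of 43.5 and 46.1 overlapped naïve, a ratio of 1.22. MCM5, a subunit of the replicative helicase, ranked at 87.1 and 79.3, 94.8 and 94.9, and 95.5 and 88.4, a ratio of 1.31 in both cultures. For XRCC6 the cultures differed by more than the spread within either, and for MCM5 they overlapped.

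**Figure D5:**
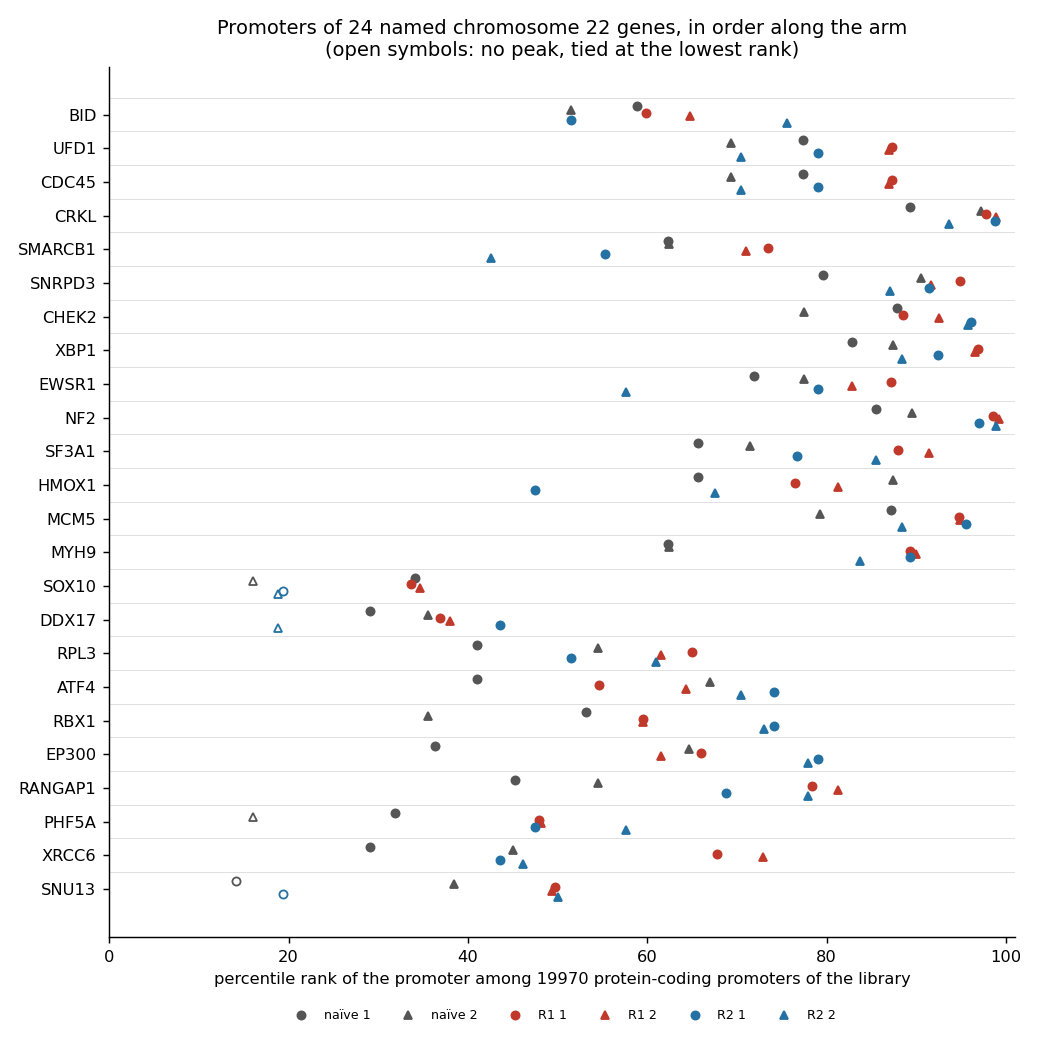
Percentile rank of the promoters of 24 named genes among the 19970 protein-coding promoters of each library, genes ordered along the arm from top to bottom (grey naïve, red R1, blue R2; circle, library 1; triangle, library 2; open symbols, no peak). Both R1 points lie above both naïve points in 20 genes and both R2 points in 11, beside 72.5% and 26.0% of chromosome 22 promoters. SMARCB1 has its R2 points below naïve.

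Among genes of stress, apoptosis and kinase signalling, XBP1, a transcription factor of the unfolded protein response, ranked at 82.8 and 87.4, 96.9 and 96.6, and 92.4 and 88.4. It was above naïve in both cultures, though the lower R2 value lay close to the higher naïve one. ATF4, a transcription factor of the integrated stress response, showed 41.0 and 67.0, 54.6 and 64.3, and 74.1 and 70.4, above naïve in R2 alone. HMOX1, heme oxygenase 1, showed 65.6 and 87.4, 76.5 and 81.3, and 47.4 and 67.5, with ratios of 0.979 and 0.637, and overlapped naïve in both. CRKL was above naïve in R1 (97.7 and 98.9 over 89.3 and 97.2) and overlapped it in R2 (98.8 and 93.7). BID, a pro-apoptotic BH3 protein, ranked at 58.8 and 51.5 in naïve, 59.9 and 64.8 in R1 and 51.5 and 75.6 in R2, and its peak in the second R1 library had its summit 2113 bp from the start. Of 17 such genes 10 stood above naïve in R1 and 6 in R2.

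RPL3, a ribosomal protein of the large subunit, ranked at 41.0 and 54.5 in naïve, 65.0 and 61.6 in R1 and 51.5 and 61.0 in R2. Of 14 genes of translation and mitochondria 11 stood above naïve in R1 and 6 in R2, and 9 had a peak in all 6 libraries. Across 24 genes named by rule, 20 were above naïve in R1, 11 in R2 and 9 in both. The shares of chromosome 22 promoters above naïve were 72.5% in R1 and 26.0% in R2, and those of all promoters 28.1% and 13.9%. No background share stands beside the 9, and both comparisons use the same naïve libraries, so nothing is read from this overlap.

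Within the 22q11.2 deletion interval 27 of 30 genes stood above naïve in R1 and 8 in R2. Their median rank was 75.4 and 77.4 in naïve, 90.7 and 92.9 in R1 and 77.9 and 81.9 in R2. This interval thus had the highest median rank of the lists in all 6 libraries, and R2 lay nearer to naïve there than to R1. Some R1 ranks in the interval come from wide peaks with distant summits. The R1 summits lay 30011 and 29997 bp from the start of TBX1 and 4162 and 4147 bp from that of ARVCF. Neither promoter stood above naïve in R1 when only summits within 1000 bp of the start were counted. Neural crest and neuronal genes ranked low, with medians of 29.6 and 15.99 in naïve, 37.4 and 38.4 in R1 and 19.3 and 30.7 in R2, and 13 of 18 stood above naïve in R1 and 3 in R2. Only 4 of the 18 had a peak in all 6 libraries, and 15.99 and 19.3 are the tied ranks of promoters without one, so the R1 count here cannot be told apart from depth. SOX10, a transcription factor of neural crest and glia, had a peak in 1 naïve and both R1 libraries, at ranks of 33.6 to 34.7.

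Peaks at the APOBEC3 cluster and at blood cell genes were called mostly in R1, the deepest group. All 7 APOBEC3 promoters had a peak in both R1 libraries, 2 in each naïve library and 0 in R2. In R1 their median rank was 26.4 and 24.8, and 5 of 7 stood above naïve. Of 10 blood cell genes 8 and 9 had a peak in the R1 libraries, 5 and 4 in naïve and 2 and 1 in R2, and 5 stood above naïve in R1 and 0 in R2. A weak peak present in R1 and missing elsewhere cannot be told apart from a difference in depth.

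The largest differences of single regions in R2 were at promoters, and the R1 values there also stood above naïve. The TEF region at chr22:41367159-41367518, at a start of a PAR bZIP transcription factor of circadian output, ranked at 1.69 and 7.28 in naïve, 72.9 and 78.6 in R1 and 83.8 and 84.7 in R2, with scaled pileups 2.86 and 3.22 times naïve. UQCR10, a subunit of respiratory complex III, at chr22:29767267-29767479, ranked at 30.6 and 7.28, 83.3 and 81.9, and 87.2 and 90.1. The R1 summits lay 270 and 314 bp and the second naïve summit 91 bp outside that region, and the UQCR10 promoter in the ranking of genes stood at 65.6 and 79.3 in naïve, 86.2 and 85.3 in R1 and 83.0 and 88.4 in R2. CECR2, a bromodomain chromatin remodelling factor, at chr22:17368463-17369940, ranked at 0.248 and 7.28, 63.3 and 70.1, and 73.2 and 68.3. At TEF and CECR2 the peak summits of all 6 libraries lay inside the region, but the CECR2 region is 1478 bp wide. Its naïve summits were 781 and 773 bp from the start of CECR2, those of R1 17 and 15 bp and those of R2 386 and 712 bp, so the values there come from different places within it. At the start that represents TEF in the ranking of genes, farther along the chromosome, the ranks were 49.4 and 77.5 in naïve, 75.7 and 81.3 in R1 and 74.1 and 73.1 in R2, which overlap.

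In R1 the largest differences were at regions covered by wide peaks. The region in an intron of GNAZ, a G protein alpha subunit, at chr22:23078782-23079034, had ranks of 0.248 and 1.34 in naïve, 97.5 and 96.5 in R1 and 18.4 and 1.39 in R2. Its covering R1 peaks were 14685 and 15573 bp wide, with summits 8599 and 8598 bp away. The regions in introns of GNB1L and DGCR8, next in order, likewise lay 1434 and 1432 bp and 1062 and 1011 bp from the R1 summits. Their R1 shifts of 96.2, 94.1 and 93.2 are therefore not differences at those regions.

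At the other end, R1 lay below naïve in an intron of SFI1, which encodes a centrin-binding protein, at chr22:31602268-31602498, with ranks of 71.9 and 73.9 in naïve, 20.6 and 11.0 in R1 and 58.5 and 58.0 in R2, with the second R1 summit 155 bp outside the region. An intronic region of KIAA1671 at chr22:25154354-25154620 ranked at 60.8 and 56.4, 4.03 and 4.59, and 64.5 and 14.1. In R2 the lowest shifts were in regions near CCDC188 and RNF215 whose naïve and R1 peaks had their summits 308 to 862 bp outside the region, so these too compare different places. Regions below naïve were the minority on this chromosome, as the counts of 45 and 72 of 1024 above show.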

How the data were processed

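ATAC-seq libraries of 100000 cells were sequenced in pairs on a HiSeq4000. Per the labels and the study's methods, the authors aligned reads with BWA (0.7.12-r1039), removed duplicates with Picard (1.65), used SAMtools (1.3.1) and bedtools (2.25.0), moved read ends by 4 and −5 bases and called peaks in each library separately with MACS2 (2.2.7.1; q 0.01, shift 100, extension 200). The deposited lists hold a fold (ratio of pileup to background) and −log10 p-values and −log10 q-values. The labels name hg19 and hg38, and start sites fitted hg38 (GENCODE 44).

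Groups came from sample titles. Peaks were ranked by −log10 p within each library with Python 3.11.15, NumPy 2.4.6, pandas 2.3.3, SciPy 1.17.1 and Matplotlib 3.10.9. Summit pileups were recovered from the fold values, since the lists carry no read totals. Scripts were tested on simulated data. Overlap meant at least 1 shared base. Members, gene lists, named genes and alternatives were chosen with earlier results of these data known. The 24 genes named singly came from a set list (1 further gene of it and 2 marker genes are not reported here), and regions were the 3 highest or lowest by shift or mean rank. A gene was represented by its best peak within 1000 bp of its start. Bins of the long arm were 2 Mb wide with at least 5 shared regions. No test was made.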

Additional observations from a re-analysis of the deposited data

Results flagged for a closer look

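The search covered the bins and intervals of the arms, the genes named singly and the regions picked by shift or mean rank. At 5 of these places the libraries of R1 all lay on one side of the naïve mean and those of R2 on the other. None of these differences between the cultures was tested. Other promoters were not searched, and some also met the rule. The LZTR1 promoter, for example, ranked at 77.4 and 79.3 in naïve, 86.2 and 92.3 in R1 and 68.8 and 73.1 in R2. On the short arm the median shift was −2.01 in R1 and 10.6 in R2. At the SMARCB1 promoter the R2 shift was −13.4, from summit pileups of 12 and 9 fragments, and R1 stood above naïve. The intergenic region at chr22:12693220-12694089 shifted by 0.124 in R1 and −0.392 in R2, a difference within the uppermost percentile of every library. The intergenic region at chr22:10718050-10718313 shifted by −71.9 in R1 and 11.8 in R2. The region at chr22:30423291-30423605 near RNF215 shifted by 8.25 in R1 and −67.2 in R2, with naïve and R1 summits outside it. Groups of 2 libraries are too small to look for a single library apart from the others.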

How the results depend on the processing

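Of the values recomputed under the alternatives, 58 moved by less than the spread between libraries (counts: by less than 1.5 times). A further 35 moved by more and 1 changed sign, and where no reason is given, the cause was not tested. The 58 include rankings by fold, whose values were identical because fold and −log10 p order the peaks alike. They also include R1 values without an R2 library and R2 values without an R1 library, where the compared libraries stayed the same. Ranking among all peaks of a library gave shifts of 16.7 in R1 and −9.63 in R2 and 81 regions above naïve in R2 (7.91%, beside 4.35% of all regions). Regions of the second naïve list gave an R2 shift of 8.30. Requiring a shared fraction of 0.5 of each region left 40 regions, with an R1 shift of 19.6 and 29 and 21 regions above naïve in R1 and R2 (72.5% and 52.5%, beside 32.8% and 21.96% of all). A −log10 q of at least 5 left 636 regions, with 490 and 260 above naïve (77.0% and 40.9%, beside 28.1% and 26.4%). Alternatives chosen after seeing the data gave lower values: joined regions had shifts of 19.0 and 7.09, 454 and 213 above naïve, and 94.4% of bins positive in R2; promoters had shifts of 13.8 and 6.77, with 324 and 116 above; promoters by summit had 13.5 and 6.34, with 304 and 106. These counts come from fewer regions. The share of top peaks on chromosome 22 over the top 10000, the top 50000 and all peaks was 1.26%, 1.86% and 2.50% in naïve, 2.80%, 4.05% and 4.16% in R1, and 2.08%, 2.82% and 3.24% in R2. Leaving out each library in turn gave shifts of 21.6 to 24.9 in R1 and 8.78 to 12.2 in R2, and 824 to 1060 regions above naïve in R1 and 405 to 778 in R2, with 100% of bins positive in both. The share of all regions above naïve then ran from 26.0% to 40.1% in R1 and from 26.4% to 42.6% in R2. The R2 count moved most without the second naïve library (630, or 54.0% beside 38.1% of all regions) and without the first (778, or 56.4% beside 41.2%) or second (775, or 57.1% beside 42.6%) R2 library, where more regions are shared and 1 library in place of 2 must be exceeded or exceed. No paired analysis was possible because the results come from no test, so no fit could take the library number as a block; as a description, within library number 1 and number 2 the shifts were 26.4 and 22.2 in R1 and 13.4 and 8.10 in R2. Peaks below the lowest pileup called, 6 fragments in R2 and 14 or 18 in R1, were not detectable, so a missing R2 peak does not show a closed site.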
